A study of Mus musculus with 4 samples.

Results

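The SLAM family is a group of surface receptors of blood cells, and 6 of its genes were followed here from hematopoietic stem cells (HSC) to multipotent progenitors (MPP) of the mouse. The 6 genes, Slamf1, Cd48, Cd244a, Ly9, Cd84 and Slamf6, were chosen by family name with their HSC and MPP signals on these arrays already known, so those signals are given as a description with no test. All 12 probe sets that the array's platform annotation assigns to exactly 1 of these genes were kept, of 45037 probe sets in all. The HSC were CD34-negative KSL cells and the MPP were CD34-positive KSL cells, both sorted from mice of C57BL/6 background, where KSL stands for a gate on c-Kit, absent lineage markers and another stem cell antigen. No SLAM family antigen is named in the sort by the labels. Each group had 2 samples that the labels call biological replicates, without giving the animals behind them, their number, age or sex, so the spread measured may be technical. RNA equivalent to 3000 cells was amplified in successive rounds and read on 1 Affymetrix Mouse Genome 430 2.0 array per sample, as the signal intensity of each probe set in arbitrary units. The samples are bulk RNA of sorted cells, in which fewer cells of a type and less RNA per cell cannot be told apart.

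SLAM receptors are immunoglobulin-type proteins that mostly bind a copy of themselves on a neighbouring cell and signal inside through small SH2 adaptors of the SAP type, Src family kinases and SH2 phosphatases. Exceptions include Cd48, which is held in the membrane by a lipid anchor and has no signalling tail, and Cd244a, the receptor that binds Cd48. In mouse bone marrow the proteins of Slamf1 (CD150), Cd48 and Cd244a (also called 2B4) are widely used to tell stem cells from progenitors, stem cells being known as positive for Slamf1 and negative for the other two. In mature blood the family is known from T, B and natural killer cells, macrophages and platelets.

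The 6 genes lie in a row on chromosome 1, in the order Cd244a, Ly9, Cd48, Slamf1, Cd84 and Slamf6 in the RefSeq table of GRCm38.p6, with Slamf7, a further family member, between Ly9 and Cd48. RefSeq promoter entries matched 5 of the 6 genes. Shown are the 250 bases before the listed start of the 3 genes whose signals differed furthest between the groups, written 5′ to 3′ on GRCm38.p6. Capitals mark matches, on either strand, to the E-box CACCTG or to TGTGGT, the core that RUNX factors recognise.
Slamf1 (chr1:171766882-171767131, plus strand): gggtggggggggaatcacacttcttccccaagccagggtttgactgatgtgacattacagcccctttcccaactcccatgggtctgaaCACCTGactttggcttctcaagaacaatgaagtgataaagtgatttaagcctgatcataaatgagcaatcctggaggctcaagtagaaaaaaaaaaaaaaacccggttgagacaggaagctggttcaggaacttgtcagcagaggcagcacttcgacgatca
Cd48 (chr1:171681742-171681991, plus strand): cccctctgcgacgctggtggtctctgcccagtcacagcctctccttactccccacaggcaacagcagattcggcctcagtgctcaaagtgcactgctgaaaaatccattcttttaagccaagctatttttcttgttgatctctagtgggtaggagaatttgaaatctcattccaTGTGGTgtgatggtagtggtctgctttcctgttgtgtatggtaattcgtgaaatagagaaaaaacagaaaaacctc
Cd244a (chr1:171558943-171559192, plus strand): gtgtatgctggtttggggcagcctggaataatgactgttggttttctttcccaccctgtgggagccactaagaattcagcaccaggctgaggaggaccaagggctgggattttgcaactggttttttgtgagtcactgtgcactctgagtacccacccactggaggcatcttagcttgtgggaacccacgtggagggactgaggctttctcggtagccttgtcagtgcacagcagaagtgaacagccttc
The Slamf1 window held 1 E-box, which starts 162 bases before the listed start, and no TGTGGT. The Cd48 window held 1 TGTGGT, 76 bases before the listed start. The Cd244a window held neither. Cd84, whose window is not shown, held 1 TGTGGT 45 bases before its start. Of 32851 promoter windows of this length, 17.2% held CACCTG and 14.0% held TGTGGT, so these letters are common. The motif CGGAAG of ETS factors and AGATAA of GATA factors, present in 13.6% and 9.99% of the windows, were in none of the 5 windows. For each motif only the exact letters given were searched, so sites of another form would be missed. The Cd48 and Cd244a windows lie wholly inside the span that RefSeq gives those genes, so other transcripts may start upstream of them.

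Slamf1 was higher and Cd48 and Cd244a were lower in HSC, while Cd84, Slamf6 and Ly9 differed little or were near background. Background was taken as each array's floor, the top signal of 27 control probe sets that match Bacillus subtilis RNA, which stood at 16.9 and 16.7 units on the HSC arrays and 14.9 and 13.6 units on the MPP arrays. Over the 12 member probe sets, the HSC values lay above both MPP values on 5, below both on 3 and overlapped them on 4. Among all 45037 probe sets the groups did not overlap on 47.2%, with HSC higher on 29.4% and lower on 17.8%. Of the 12, 4 were above the floor on all 4 arrays and 2 on none, namely the Ly9 probe set and 1425086_a_at of Slamf6.

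**Figure D1:**
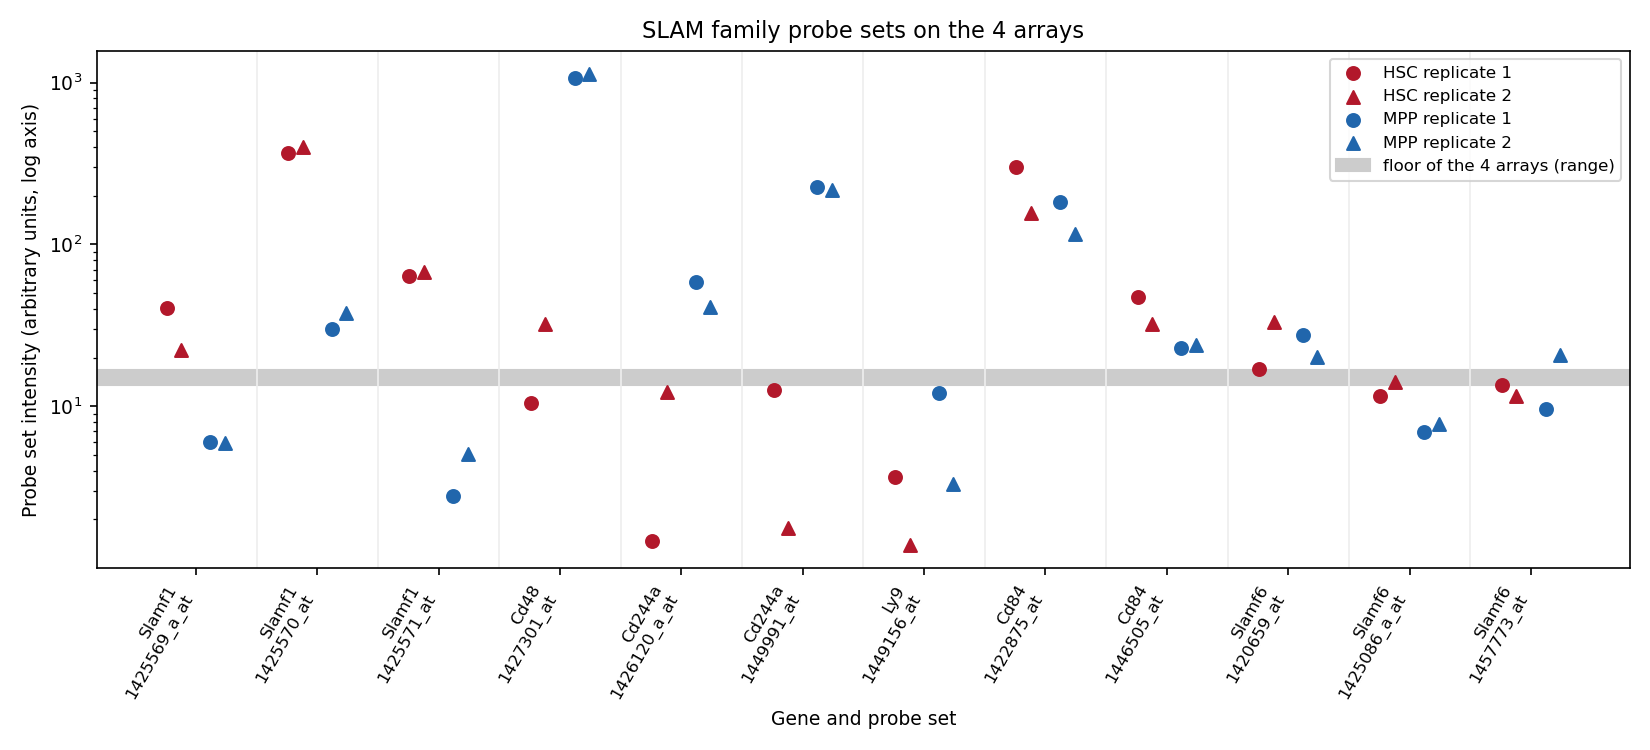
Intensity in arbitrary units on a log axis for the 12 SLAM family probe sets, with HSC arrays in red and MPP arrays in blue (circles replicate 1, triangles replicate 2); the grey band spans the floors of the 4 arrays, 13.6 to 16.9 units. The red points lie above the blue for all 3 Slamf1 probe sets and below them for Cd48 and both Cd244a probe sets.

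Slamf1 encodes the receptor CD150, which binds itself and recruits SAP. Its brightest probe set, 1425570_at, read 366 and 400 units on the HSC arrays and 30.2 and 37.5 units on the MPP arrays. The HSC arrays were the high ones and were close to each other, 0.12 apart on the log2 scale, and the MPP arrays were dim but still above the floor. The difference of log2(intensity + 6.01), HSC minus MPP, was 3.29, and the ratio of mean intensities was 11.3. With any 1 array left out the difference was 3.16 to 3.43. On 1425571_at the HSC arrays read 64.3 and 67.3 units and the MPP arrays 2.79 and 5.09 units. Both MPP values were below the floor, so this probe set gives only a bound, at least 4.62-fold higher in HSC. On 1425569_a_at the HSC arrays read 40.5 and 22.3 units and the MPP arrays 5.98 and 5.93 units, at least 2.11-fold higher in HSC. All 3 probe sets thus had both HSC values above both MPP values.

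Cd48 encodes the lipid-anchored ligand of Cd244a and of the lymphocyte receptor Cd2. Its single probe set, 1427301_at, read 10.4 and 32.4 units on the HSC arrays and 1071 and 1126 units on the MPP arrays. The MPP arrays differed by 0.07 on the log2 scale and the HSC arrays by 1.23, with 1 of the 2 HSC arrays, replicate 2, above the floor. The log2 difference was -5.46. It was -4.85 with HSC replicate 1 left out and -6.07 with HSC replicate 2 left out, so the size of this difference, though not its direction, turned on the dim HSC arrays. Among all 27022 probe sets that passed the filter on dim signals it ranked 5 from the lowest. Nothing is read from that rank, since Cd48 was chosen with this contrast known.

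Cd244a encodes the receptor 2B4, best known from natural killer cells, where it is engaged by Cd48. On 1449991_at the HSC arrays read 12.6 and 1.77 units and the MPP arrays 228 and 218 units. Both HSC arrays were below the floor, so Cd244a was at least 13.3-fold lower in HSC by this probe set. The log2 difference was -4.25, and it was -4.88 with HSC replicate 1 and -3.62 with HSC replicate 2 left out, a spread that comes from values below the floor. On 1426120_a_at the HSC arrays read 1.48 and 12.3 units and the MPP arrays 58.3 and 41.0 units, at least 2.92-fold lower in HSC. The ligand Cd48 and its receptor Cd244a were thus both above the floor on both MPP arrays, and both Cd244a probe sets were below the floor in HSC.

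Cd84 encodes a receptor that binds itself and is known from platelets, B cells and macrophages. On 1422875_at the HSC arrays read 300.2 and 156 units and the MPP arrays 182 and 117 units. The groups overlapped, since HSC replicate 2 lay below MPP replicate 1, and the log2 difference of 0.55 was as large as the SD between replicates, 0.55. Leaving out HSC replicate 1 gave 0.09 and leaving out HSC replicate 2 gave 1.01, and leaving out MPP replicate 1 or 2 gave 0.86 or 0.24. On the dimmer 1446505_at the HSC arrays read 47.2 and 32.3 units and the MPP arrays 22.8 and 24.1 units, without overlap, and the log2 difference was 0.62. Cd84 was above the floor on all 4 arrays with both probe sets, so its signal was present in HSC and in MPP.

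Slamf6 encodes a self-binding receptor of T and B cells, known in mouse as Ly108. On 1420659_at the HSC arrays read 17.0 and 33.1 units and the MPP arrays 27.4 and 20.2 units. These values overlapped, lay close to the floor, and gave a log2 difference of 0.02 that was 0.41 or -0.36 with HSC replicate 1 or 2 left out. On 1457773_at the HSC arrays read 13.6 and 11.6 units and the MPP arrays 9.63 and 20.8 units, with only MPP replicate 2 above the floor. On 1425086_a_at the HSC arrays read 11.5 and 14.1 units and the MPP arrays 6.94 and 7.73 units, all below the floor. No difference in Slamf6 was detectable at these signals.

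Ly9 encodes CD229, a self-binding receptor of lymphocytes that is also used to divide mouse stem cells and progenitors into subsets. Its single probe set, 1449156_at, read 3.66 and 1.40 units on the HSC arrays and 12.01 and 3.33 units on the MPP arrays. All 4 values were below the floor, so the array gave no measurable Ly9 signal in either group and no fold is given.

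**Figure D2:**
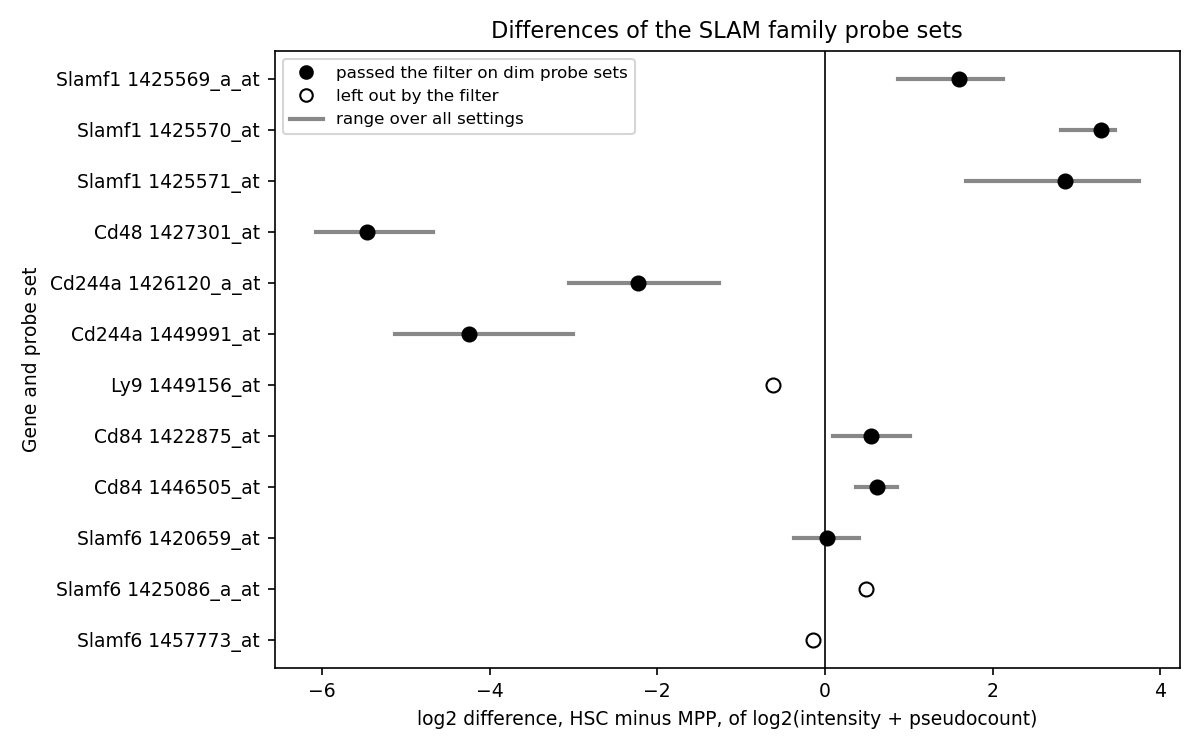
Difference of log2(intensity + pseudocount), HSC minus MPP, for each SLAM family probe set (points, open where the filter on dim probe sets left it out), with grey lines spanning all processing settings that kept the probe set. Slamf1 stays right of 0 on all 3 probe sets and Cd48 and Cd244a stay left of it, whereas 1420659_at of Slamf6 spans 0, from -0.36 to 0.41.

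The same contrast was fitted across the whole array with limma, after the lowest 40% of probe sets by mean level were left out. Of the 12 member probe sets 9 passed that filter, and Slamf1 1425569_a_at (mean level 4.38 on the log2 scale) and Slamf6 1457773_at (4.29) lay just inside and just outside the limit of 4.32. Of these 9, 5 had a Benjamini-Hochberg adjusted p under the threshold, 2 higher and 3 lower in HSC, against 10.6% of all probe sets tested (5.96% higher and 4.65% lower). Of all probe sets tested 1611 were higher and 1257 lower in HSC, but 988 and 2798 when the arrays were scaled to equal medians. Slamf1 had 2 of these calls, Cd48 1 and Cd244a 2. Because the members were chosen with this contrast known, and dim members pass the filter only through the group where they are bright, nothing is read from that count.

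The arrays and cells behind these values were checked with markers and controls. Cd34, the antigen that split the sort, read 469 and 235 units on the HSC arrays and 1967 and 2302 units on the MPP arrays. All 5 stem and progenitor markers with a named probe set, Kit, Cd34, Flt3, Procr and Mecom, were above the floor on all 4 arrays. The T cell genes Cd3d, Cd3e, Cd3g and Cd4 and the natural killer gene Ncr1 were above the floor on no array, nor was the B cell gene Cd79a. The T cell gene Cd8a and the B cell gene Cd79b were above the floor on all 4 arrays, Cd8a with 44.4 and 46.2 units in HSC and 16.0 and 30.3 units in MPP and Cd79b with 139.9 and 145 units in HSC and 117 and 152 units in MPP. The T cell gene Cd5 read 5.25 and 7.50 units in HSC and 19.9 and 20.1 units in MPP, above the floor on both MPP arrays only. Neither Cd8a nor Cd79b was called. Cd5 was left out by the filter on dim probe sets, so it was not tested. The summed signal of 4 natural killer cell markers was 89.7 and 66.9 units on the HSC arrays and 434 and 357 units on the MPP arrays, of which Nkg7, a granule gene and the only one called, lower in HSC, gave 49.5 and 43.3 units in HSC and 376 and 312 units in MPP. The sum of 7 macrophage and dendritic cell markers was 310 and 295 units in HSC and 523 and 785 units in MPP. Csf1r, the only one called, lower in HSC, gave 54.0 and 30.9 units in HSC and 282 and 552 units in MPP. Of the others, Cd68 was lower and Cd74 higher in HSC without overlap, and Adgre1, Itgax, Mrc1 and Fcgr1 overlapped. The sum of 5 megakaryocyte and platelet markers was 1053 and 794 units in HSC and 544 and 385 units in MPP, and 2, Pf4 and Gp9, were called higher in HSC. Ppbp was higher in HSC without a call, Itga2b overlapped and Gp1bb was lower in HSC without a call. Of the other lists, T cell (6 markers) summed to 60.03 and 78.6 in HSC and 44.9 and 69.1 units in MPP, B cell (5) to 193 and 238 in HSC and 167 and 209 units in MPP, and neutrophil (4) to 84.0 and 14.5 in HSC and 48.8 and 42.8 units in MPP. Mast cell and basophil markers (5) summed to 148 and 224 in HSC and 277 and 270.2 units in MPP, with Cpa3 called lower in HSC. Ms4a2 was lower in HSC without a call, and Fcer1a and Mcpt8 overlapped, Mcpt8 with 4.96 and 97.6 units in HSC and 28.5 and 42.7 units in MPP. Mcpt4 was higher in HSC without overlap but below the floor on all 4 arrays. Erythroid markers (4) summed to 4496 and 4448 in HSC and 2017 and 1999 units in MPP, most of it from Car2, which with Klf1 was called higher in HSC. Hba-a1 went the other way without overlap, at 13.7 and 2.33 units in HSC and 16.6 and 16.5 units in MPP. Slc4a1 was below the floor on all 4 arrays, and neither it nor Hba-a1 was tested. The natural killer, macrophage, and mast cell and basophil sums were lower in HSC, as Cd48 and Cd244a were. The platelet and erythroid sums were higher in HSC, as Slamf1 was. The part of these sums in the results was not tested. HSC replicate 2 had a 3′ to 5′ actin signal ratio of 9.42, beside 5.26 for HSC replicate 1 and 4.99 and 5.01 for the MPP arrays. The labels name no batch.

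The genes around the family on chromosome 1 were read from the same fit to see whether they differed between the groups too. The members were chosen with this contrast known, so nothing is read from their differences being larger than those of the neighbours. Of 20 tested neighbours, the 10 nearest on each side, F11r rose and Arhgap30 fell in HSC and the other 18 were not called. By representative probe set, the brightest of a gene, 13.6% of all 12382 genes were called, 7.71% higher and 5.9% lower. F11r, a junction adhesion molecule and the nearest tested gene before Cd244a, read 303 and 265 units in HSC and 98.1 and 102 units in MPP (log2 difference 1.45, SE 0.21, limma adjusted p = 0.00154). Arhgap30, a GTPase-activating protein, read 379 and 308 units in HSC and 673 and 813 units in MPP (-1.10, SE 0.19, limma adjusted p = 0.00408). Of 3 Arhgap30 probe sets tested, 1 was called, and with the mean of all 3 the call ended (-0.56, limma adjusted p = 0.0968, the highest over its 14 alternatives, whose lowest was 2.25e-06), as it did with no trend in the prior variance. With equal array medians 1 neighbour was higher and 4 were lower. None of the 10 genes after Slamf6, from Vangl2 to Tagln2, was called by limma on its brightest probe set, and 1 of them had an unadjusted p under 0.05. Pea15a, one of these 10, had its other tested probe set called higher. The 20 neighbours had a median log2 difference of 0.01, beside 0.10 over all genes.

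**Figure D3:**
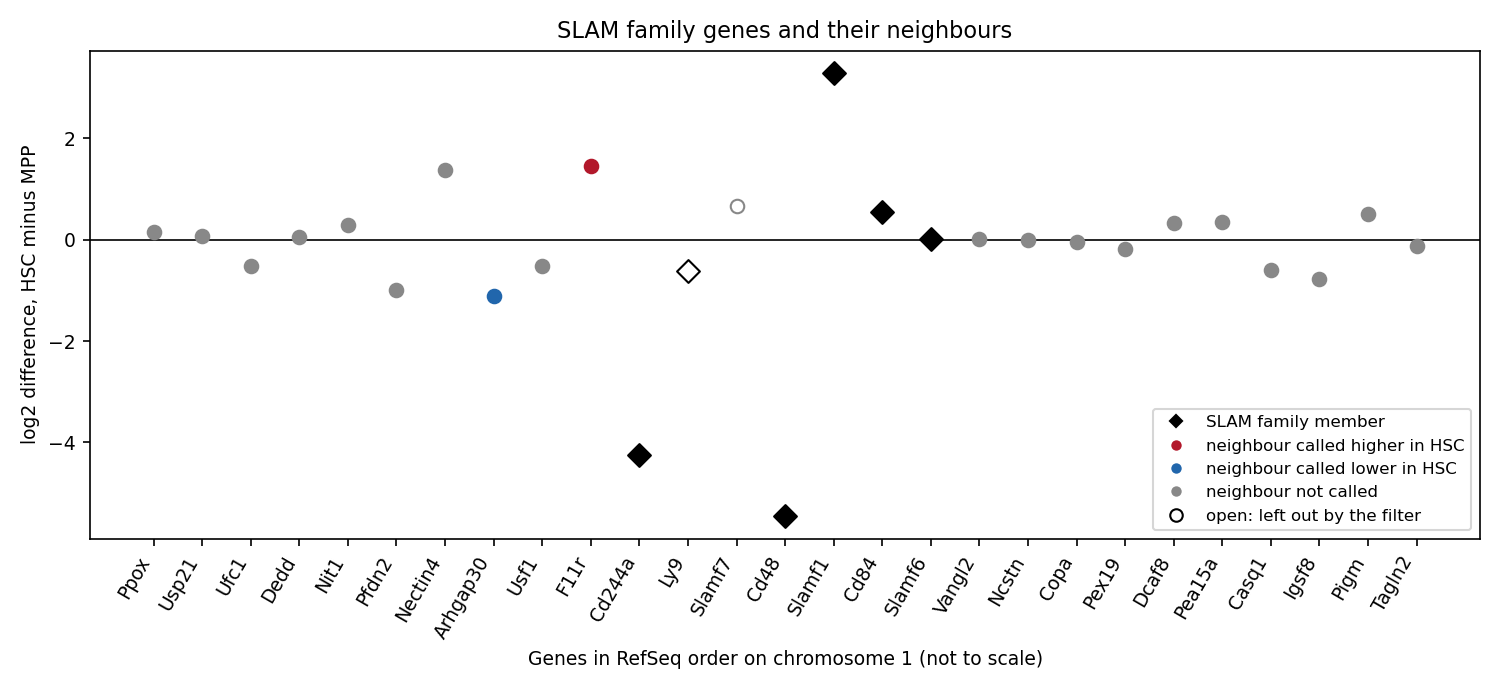
Log2 difference, HSC minus MPP, for genes in RefSeq order along chromosome 1 (not to scale), each by its brightest probe set, with SLAM family members as black diamonds and neighbours as circles (red called higher, blue called lower, grey not called, open left out by the filter). Cd244a and Cd48 lie at -4.25 and -5.46 and Slamf1, the member after Cd48, at 3.29, while the neighbours lie between -1.10 and 1.45.

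The other SLAM receptors with a named probe set and Sh2d1a, the only one of 3 listed SAP-type adaptors to have one, were at or near the floor. Slamf7 read 16.8 and 7.54 units on the HSC arrays and 7.995 and 2.68 units on the MPP arrays, below the floor throughout. Slamf8, a macrophage receptor, read 26.0 and 15.7 units in HSC and 2.16 and 4.17 units in MPP, above the floor on HSC replicate 1 alone. Slamf9 read 22.5 and 19.7 units in HSC and 19.9 and 1.37 units in MPP. Cd2, the other receptor for Cd48, read 0.601 and 10.5 units in HSC and 0.919 and 0.415 units in MPP, below the floor on all arrays. Sh2d1a, which encodes SAP, was also below the floor, with 0.548 and 3.51 units in HSC and 0.835 and 0.691 units in MPP. None of these 5 genes passed the filter on dim probe sets, so none was tested.

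The signalling genes known to act with SLAM receptors were mostly bright in both groups, and the share called was close to that of all genes. Of 46 genes on the list, 39 had a named probe set and 34 were tested. In HSC, 4 of the 34 rose, 1 fell and 29 were not called, which is 14.7% beside the 13.6% of all genes given above. With equal array medians 1 was higher and 5 were lower. The median log2 difference of the 34 was 0.02, beside 0.10 over all genes. Of the 7 tested kinases and 5 tested phosphatases none was called by limma, while 3 and 2 of them had an unadjusted p under 0.05. Nothing is read from the counts of groups this small. The kinase Fyn, which SAP recruits, read 224 and 187 units in HSC and 226 and 309 units in MPP, and the groups' difference of -0.36 was not called (limma adjusted p = 0.359). The phosphatase gene Ptpn6 (SHP-1) read 577 and 605 units in HSC and 534 and 552 units in MPP, a difference of 0.12 that was not called (limma adjusted p = 0.708). Inpp5d (SHIP-1) read 352 and 203 units in HSC and 382 and 408 units in MPP, at -0.55 (limma adjusted p = 0.201). Among kinases without a call by their brightest probe set, Yes1 had another probe set called higher and Syk another called lower.

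Of 18 tested downstream genes 3 rose and 1 fell, which is 22.2% beside 13.6% of all genes. With so few genes nothing is read from that share. Prkcq, the kinase PKC-theta of lymphocyte receptor signalling, read 344 and 364 units in HSC and 151 and 124 units in MPP. Both HSC values were above both MPP values, 1.33 apart on the log2 scale (SE 0.20, limma adjusted p = 0.00210), and it was called under all 13 alternatives that could test it. Lcp2, the adaptor SLP-76, read 387 and 297 units in HSC and 161 and 178 units in MPP (0.98, SE 0.21, limma adjusted p = 0.0133). Nfatc2, a calcium-dependent transcription factor, read 244 and 277 units in HSC and 129 and 164 units in MPP (0.81, SE 0.21, limma adjusted p = 0.0356). Vav3, a guanine nucleotide exchange factor, read 249 and 219 units in HSC and 474 and 465 units in MPP (-0.99, SE 0.18, limma adjusted p = 0.00635), and both of its tested probe sets were called lower. The relatives Vav1 and Vav2 were not called, at -0.13 and -0.21. Of the 4 genes known to act with Slamf1 at the phagosome, Pik3r4, a regulatory subunit of the lipid kinase complex with Becn1, rose, with 547 and 505 units in HSC and 369.9 and 281 units in MPP (0.69, SE 0.19, limma adjusted p = 0.0447). Nfatc2 and Pik3r4 lost their calls under 8 of 14 and 6 of 13 alternatives, with limma adjusted p up to 0.259 and 0.382. Lcp2 lost its call without MPP replicate 1 (0.91, limma adjusted p = 0.0825) and with equal array medians (0.69, limma adjusted p = 0.0606), and Vav3 without MPP replicate 1 (-0.97, limma adjusted p = 0.0516). Without the trend in the prior variance Lcp2, Nfatc2, Pik3r4 and Vav3 all lost their calls. Over all alternatives adjusted p ran from 2.60e-04 to 0.101 for Lcp2 and from 8.56e-05 to 0.0800 for Vav3. Of the tested probe sets of Lcp2 and Nfatc2, 1 of 2 and 1 of 3 were called, and Cblb, not called by its brightest probe set, had 1 of 3 called higher.

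**Figure D4:**
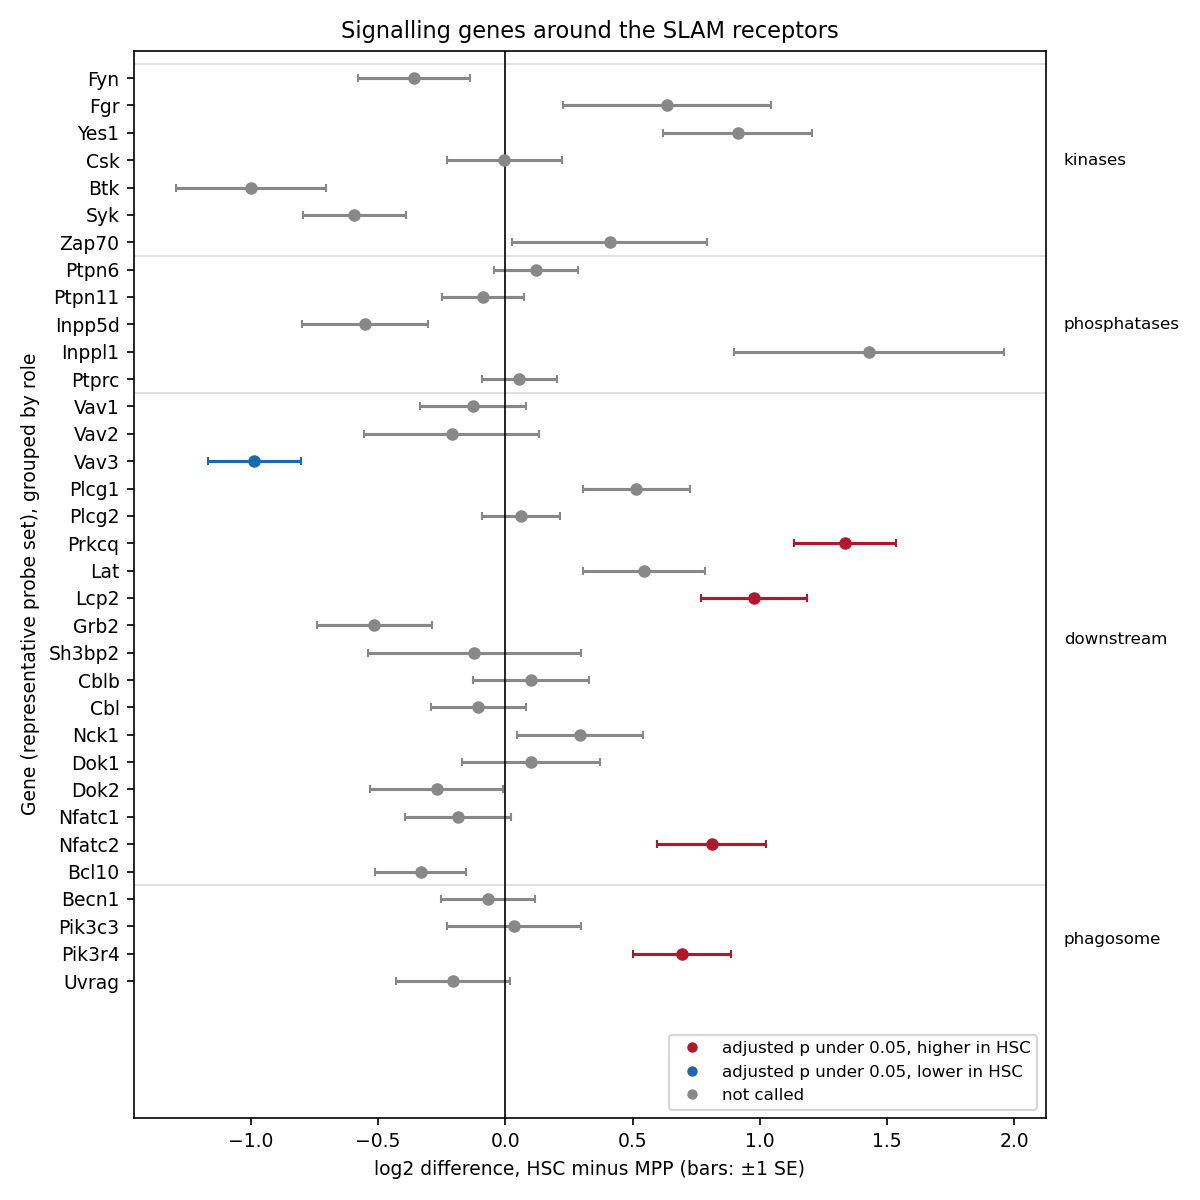
Log2 difference, HSC minus MPP, with bars of 1 SE, for the 34 tested signalling genes around the SLAM receptors, grouped by role (red called higher, blue called lower, grey not called at the adjusted p threshold). Prkcq, Lcp2, Nfatc2 and Pik3r4 lie right of 0 between 0.69 and 1.33 and Vav3 lies left of 0 at -0.99.

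For the members whose signal spanned at least 1 on the log2 scale, the genes with the most alike pattern were those with the smallest distance between log2 values centred on their own mean over the 4 arrays, among 11646 other genes. The pattern of Slamf1 was matched most closely by Lancl3, Myh10 and Plagl1, at distances of 0.10, 0.12 and 0.13. Myh10, a non-muscle myosin, read 331 and 384 units in HSC and 30.9 and 35.9 units in MPP, which puts the 4 arrays in the same order as Slamf1 does. Lancl3 read 65.4 and 76.4 units in HSC and 1.64 and 2.95 units in MPP. Plagl1, a zinc finger gene, read 88.3 and 85.8 units in HSC and 2.31 and 4.20 units in MPP. The MPP values of Lancl3 and Plagl1 were below the floor, unlike those of Slamf1, so their closeness rests partly on background readings. No gene lay that close to Cd48, whose nearest were Dntt, Ighm and Ctsg at 1.04, 1.14 and 1.18. Cd48 was below the floor on HSC replicate 1, so its distances rest partly on a background reading. Dntt, the lymphoid terminal transferase, read 32.7 and 37.3 units in HSC and 2244 and 3408 units in MPP. Cd244a had as its nearest Ccl9, a chemokine, at 0.77, Flt3, a cytokine receptor, at 0.77, and Il1r1, an interleukin receptor, at 0.82. Flt3 read 166 and 69.7 units in HSC and 1171 and 1467 units in MPP. Both HSC values of Cd244a were below the floor, so its distances too rest partly on background readings. Cd84 was nearest to Vipr2, Qprt and Mars2, at 0.06, 0.09 and 0.09, which like Cd84 read higher on replicate 1 than on replicate 2 in both groups. Qprt, an enzyme of NAD synthesis, read 57.5 and 26.4 units in HSC and 33.4 and 17.8 units in MPP. Mars2 was below the floor on replicate 2 of both groups. With 4 arrays, many genes can share a pattern, and these names are a description.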

How the data were processed

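HSC and MPP, 2 sorted mouse cell populations with 2 samples each, were read on 1 array per sample. The authors deposited intensity values per probe set, which run on a linear scale, judging by their range. The software behind them was not given in the sources used here. Each array's mean, trimmed by 2% at both ends, came to about 100.0, so the arrays had been brought to a common level, with medians of 21.3 to 26.9 units. Of 45101 probe sets, 64 were controls and were dropped. Genes were named from the platform annotation, updated by gene identifier to RefSeq (GRCm38.p6). Of the rest, 34945 probe sets had 1 gene symbol (34741 matched RefSeq), 932 several and 9160 none, and only those with 1 symbol named a gene.

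Intensities were turned into log2(intensity + 6.01), with a pseudocount of 0.25 of their median, which understates the change of dim genes. The contrast of HSC and MPP was fitted with limma 3.58.1 under R 4.3.3 (lmFit, eBayes with a trend, 2-sided, no covariates) on the 27022 probe sets left after the lowest 40% by mean level were dropped, with Benjamini-Hochberg adjustment over all of them and a threshold of 0.05. The procedure was tested on simulated data, but no outcome is given here, so nothing about the calls is read from it. With 2 residual against 8.48 prior degrees of freedom, most of the spread was borrowed across probe sets, and 4 arrays limit the precision. A gene was represented by its brightest tested probe set. The bound "at least N-fold" is the ratio of geometric means with values below the floor raised to it. Whether Bacillus RNA was spiked in is not stated in the labels. If it was, the floor lies above background. Each array's floor was nonetheless below its median, so most probe sets read above it. A signal just above the floor is therefore a weak sign of expression.

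The members, gene lists, motifs and tests were chosen with earlier results of these data known. Named beside the members were the called genes of the signalling list and of the neighbours, genes that complete a group, and the 3 most alike genes per member. Alternatives changed the pseudocount, filter, normalization, prior trend, probe sets used, replicate block and left-out replicate. Probe sequences and the family's protein sequences were not used here.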

Additional observations from a re-analysis of the deposited data

How the results depend on the processing

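Slamf1 stayed higher and Cd48 and Cd244a stayed lower in HSC under all 14 alternatives, with log2 differences of 2.58 to 3.46, -6.07 to -4.67 and -5.13 to -3.005. A larger pseudocount pulled all 3 toward 0 by construction. Cd84 stayed between 0.09 and 1.01. With the lowest 60% of probe sets left out, 1 member probe set instead of 4 was higher without overlap, since fewer were kept. Without single replicates that count was 4 to 5, and the count lower without overlap was 3 to 4.

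The counts depended on the setting, and the cause was not tested. Over all probe sets, 1611 were higher and 1257 lower in HSC. They were 917 and 780 with dim probe sets kept, 988 and 2798 with equal array medians, 633 and 374 with no trend in the prior variance, and 1026 to 2011 and 568 to 1908 without single replicates. Equal medians also moved the median log2 difference of all probe sets tested to -0.16, against 0.11 as deposited, and quantile normalization to -0.01. Without MPP replicate 2 the counts were 1026 and 568, without MPP replicate 1, 623 were lower, and without HSC replicate 1, 1908 were.

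Signalling genes higher in HSC numbered 4, but 2 with no filter or without probe sets named _x_at, _s_at or _a_at, 1 with equal medians or no trend, and 1 to 5 without single replicates (1 without MPP replicate 1, 2 without MPP replicate 2). Those lower numbered 1, but 2 with a pseudocount at the median, the lowest 60% left out or the mean of a gene's probe sets, 5 with equal medians, 0 with no trend, and 0 to 4 without single replicates (4 without HSC replicate 1, 2 without HSC replicate 2, 0 without MPP replicate 1). At those limma counts of 0, 2 genes were lower at an unadjusted p under 0.05. Neighbours higher numbered 1, but 2 with the mean of a gene's probe sets. Those lower numbered 1, but 4 with equal medians, 0 with no trend or the mean of probe sets (3 and 4 at an unadjusted p under 0.05), and 1 to 3 without single replicates (3 without HSC replicate 1).

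HSC and MPP samples share replicate numbers, but same-numbered samples did not deviate together (r = 0.03 over probe sets), so the numbers were not taken as pairs. With a replicate block 2525 probe sets were higher, 3 signalling genes lower and 2 neighbours lower.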
